A study of Mus musculus with 8 samples.

Results

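The 8 transcription factors described here, Pax6, Sox1, Sox2, Prox1, Hsf4, Maf, Pitx3 and Six3, build and maintain the lens, and their transcripts were measured in lenses of 2 mouse strains with and without α3Cx46. The members were all probe sets of the MG-U74Av2 chip annotated to 1 of these 8 genes alone. There were 9 such probe sets for 8 genes, of 12422 probe sets that are not controls and of 8251 named genes. A probe set is a group of short oligonucleotides read as 1 transcript, and its signal is a brightness on a linear scale, set by the authors to an average of 250 on every array. The 8 arrays were made from whole lenses of mice aged 10 days, males and females together, 2 arrays for each of C57BL/6J KO, C57BL/6J WT, 129SvJae KO and 129SvJae WT. C57BL/6J and 129SvJae are inbred strains. WT lenses carry the intact gene of connexin 46 (α3Cx46, Gja3), a gap junction subunit of lens fiber cells, and KO lenses carry a targeted disruption of it. Each array received RNA pooled from many lenses. It is not stated that the 2 pools of a group came from separate animals, so the spread behind a p-value is that between 2 pools and may be technical. At this age the KO lenses are still clear, per the study's text, and the study asked which transcripts differ with strain or with the loss of the connexin.

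The lens is made of a layer of epithelial cells over a mass of elongated fiber cells that are packed with crystallins, the proteins that make it clear. Six3 and Pax6, both homeodomain proteins, act at the top of the network in the mouse: Six3 switches on Pax6 in the head ectoderm, and Pax6 makes that ectoderm able to form a lens. Sox2, Sox1 and Maf then act with or after Pax6 on crystallin genes, Prox1 drives fiber elongation and the exit from the cell cycle, Pitx3 keeps the epithelium in place, and Hsf4, a heat shock factor of the lens, drives crystallin and small heat shock protein genes late in fiber development. A whole lens at this age holds both cell types. In bulk RNA of this kind, fewer cells of a type and less RNA per cell cannot be told apart.

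The arrays carried the lens identity that their labels give. All 5 fiber markers on the chip (Cryaa, Crygs, Mip, Bfsp1 and Gja3) were above 50 on all 8 arrays, the level that the study's methods used as the lower limit. Gja3, the targeted gene, read 448 and 519 on the C57BL/6J KO arrays against 1968 and 3274 on the C57BL/6J WT arrays, and 472 and 445 on the 129SvJae KO arrays against 1100 and 3381 on the 129SvJae WT arrays, so every KO array was below every WT array, as its label says. The sources used here do not say whether its probe set lies within the disrupted stretch. Between 7637 and 8602 probe sets per array were above 50, and the rank correlation of the 2 arrays of a group ran between 0.815 and 0.875. The library that stood apart in a way that touches the results was 129SvJae WT replicate 1. The summed signal of 13 retina probe sets was 1697 on it and between 532 and 1055 on the other 7 arrays. Every replicate 1 array had a higher sum (1019 or more) than every replicate 2 array (795 or less). Sag, the arrestin of rod photoreceptors, read 475 there and at most 94.5 elsewhere, while Rcvrn, another photoreceptor gene, was under 50 on all 8 arrays. Gja3 was also lowest among WT arrays there. Replicate 1 of all 4 groups shared 1 scan session and 1 chip lot. A fluidics communication error was logged for the run of C57BL/6J WT replicate 1.

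All 8 factors had a probe set with a signal above 50 on every array, Sox1 by a small margin on 1 of them (54.6). Of the 9 probe sets, 8 were above 50 on all 8 arrays, 1 for each gene, as were 5591 of 12422 probe sets (45%). The remaining one, a second probe set of Six3, read between 4.8 and 21.7 with a median of 13.5, stayed under 50 everywhere and was not tested. Every value of Six3 given here is that of the bright probe set. The plot of signals by array gives the readings of all 8 factors.

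**Figure D1:**
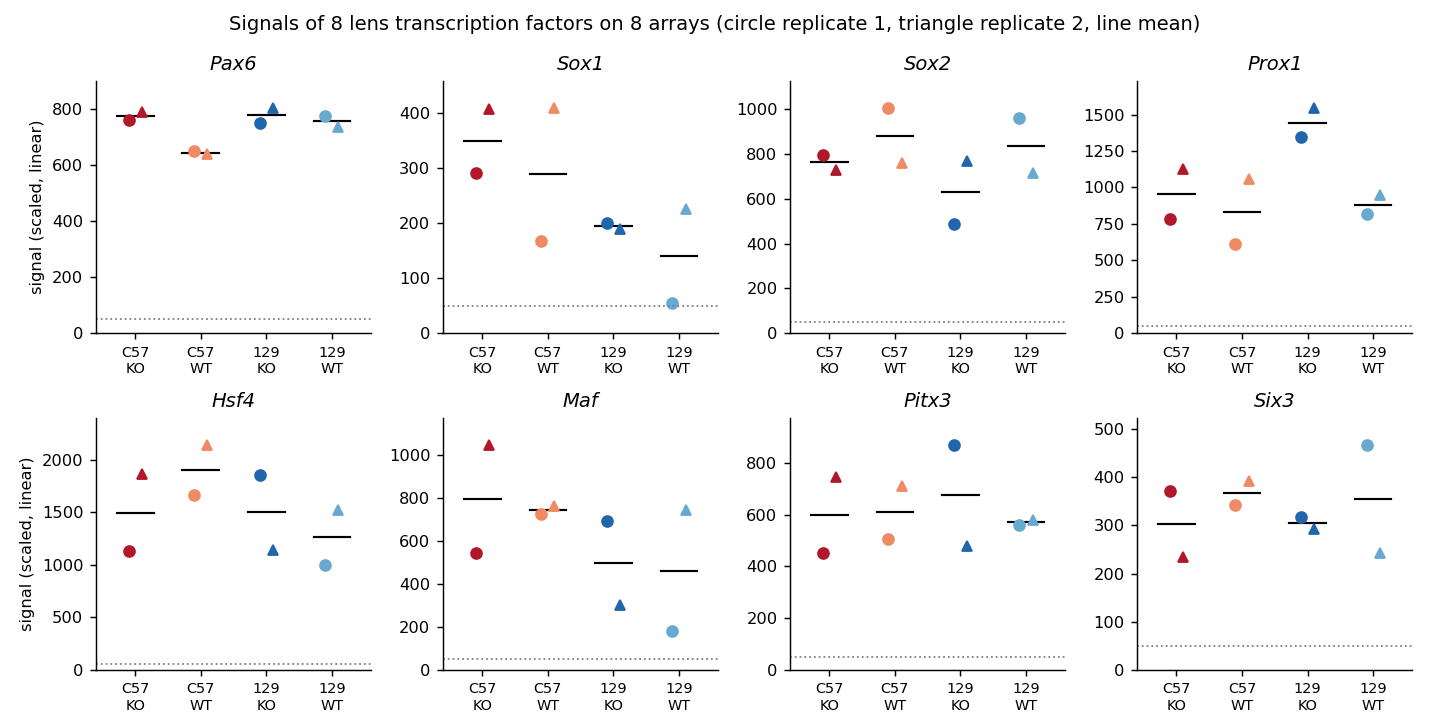
Signals of the 8 factors on the 8 arrays. Each panel is 1 gene, the vertical axis is the scaled signal on a linear scale that starts at 0, circles are replicate 1, triangles are replicate 2, black lines are group means and the dotted line marks a signal of 50. Pax6 stays between 640 and 802 on all 8 arrays, while Sox1 runs between 54.6 and 409.7.

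None of the 8 factors was called between strains or between genotypes. The test was limma on log2 signals with 1 mean per group over all 8 arrays and no block for the replicate number. The p-values were adjusted by Benjamini-Hochberg over the 10078 probe sets whose mean passed 50 in 1 group or more. A log2 ratio of 1 is a doubling, and ratios are C57BL/6J over 129SvJae or KO over WT. Of 8 factors, 0 passed an adjusted p of 0.05 in the strain difference averaged over genotypes, where 37 of 10078 probe sets (0.367%) passed. The count was 0 of 8 also in KO lenses alone (9 probe sets of the chip, 0.0893%), in WT lenses alone (7, 0.0695%), for the KO effect averaged over strains (2, 0.0198%), in C57BL/6J (1, 0.00992%) and in 129SvJae (0 of 10078, 0%), and for the interaction of strain and genotype (0 of 10078, 0%). The lowest adjusted p among the 56 ratios was 0.634. At an unadjusted p under 0.05, Sox1 and Maf had positive ratios in the averaged strain difference, where 6.98% of tested probe sets passed, and Prox1 had positive KO ratios averaged over strains (3.05%) and in 129SvJae (3.12%). No factor did so for strain in KO lenses alone (3.74%) or WT lenses alone (6.47%), for genotype in C57BL/6J (2.31%) or the interaction (2.11%). The methods' t-test on the same log2 signals also called 0 of 8 after Benjamini-Hochberg in the 6 comparisons it was run on, and none reached the methods' own limit on p.

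**Figure D2:**
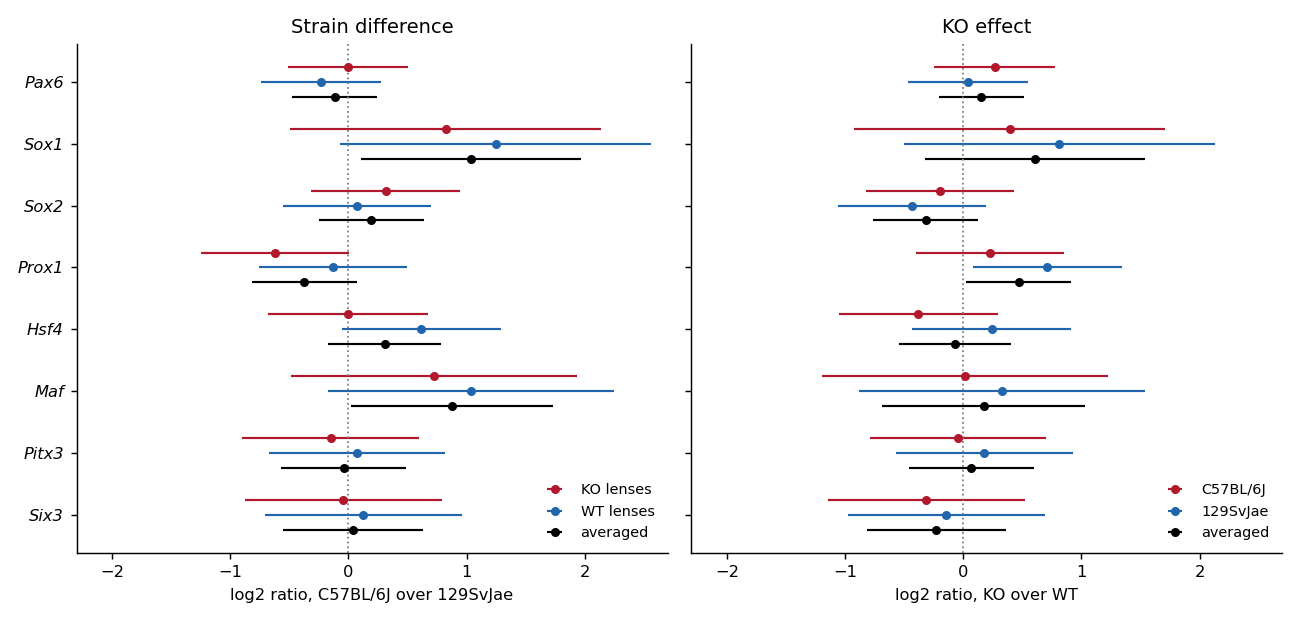
Log2 ratios of the 8 factors with their 95% confidence intervals from limma. Left, C57BL/6J over 129SvJae in KO lenses, in WT lenses and averaged; right, KO over WT in C57BL/6J, in 129SvJae and averaged. The averaged strain intervals of Sox1 (0.10 to 1.97) and Maf (0.02 to 1.73) and the averaged KO interval of Prox1 (0.02 to 0.91) leave 0 out, and none of the 3 passed adjustment.

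Pax6, the paired-domain and homeodomain factor without which no eye forms, was the steadiest of the 8. It read 758 and 789 on the C57BL/6J KO arrays, 647 and 640 on the C57BL/6J WT arrays, 749 and 802 on the 129SvJae KO arrays, and 774 and 736 on the 129SvJae WT arrays. The C57BL/6J WT arrays were the 2 lowest and lay apart from every other group, while the other 3 groups overlapped one another. Group means were 774 ± 21.7 for C57BL/6J KO, 643 ± 5.47 for C57BL/6J WT, 776 ± 37.5 for 129SvJae KO and 755 ± 27.2 for 129SvJae WT (SD, n = 2 arrays each). The C57BL/6J KO over WT log2 ratio was 0.27 (SE 0.24, adjusted p = 0.9999 in limma, n = 2 arrays each) and the strain log2 ratio in WT lenses was -0.23 (SE 0.24, adjusted p = 0.939). Averaged over genotypes the strain log2 ratio was -0.12 (95% interval -0.48 to 0.24), and averaged over strains the KO log2 ratio was 0.15 (-0.21 to 0.51).

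What set Pax6 apart was its small spread. The SD of log2 signal within groups was 0.048, and 12 of 10078 tested probe sets (0.119%) had a smaller one, against a median of 0.54. Its highest array was 1.25 times its lowest, and 52 tested probe sets (0.516%) had a smaller range. Limma draws such a small SD toward that of probe sets of like brightness, so its SE for Pax6 was 0.24 in a single-group comparison. The methods' t-test, which uses the gene's own spread, gave an SE of 0.030 for the KO over WT ratio in C57BL/6J (unadjusted p = 0.0125, adjusted p = 1). For the strain ratio in WT lenses its SE was 0.038 (unadjusted p = 0.0259, adjusted p = 0.983). The direction was the same in both replicate numbers: KO over WT in C57BL/6J was 0.23 in replicate 1 and 0.30 in replicate 2, and C57BL/6J over 129SvJae in WT lenses was -0.26 and -0.20.

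Pax6 is read from more than 1 start in the mouse. Its 2 upstream windows in the RefSeq table are shown because Pax6 stands at the head of the network and its signal varied least. Each holds the 250 bases before a start, on the plus strand of GRCm38.p6, at chr2:105668646-105668895 and chr2:105682213-105682462. The following 4 short motifs were looked for on both strands in the windows of all members: GAANNTTC (a heat shock element), TGCTGA (part of a Maf recognition element), TAATCC (a site of homeodomain proteins of the Pitx kind) and CATTGT (a Sox site). Matches are in capitals, and neither Pax6 window had one.
Pax6 first start: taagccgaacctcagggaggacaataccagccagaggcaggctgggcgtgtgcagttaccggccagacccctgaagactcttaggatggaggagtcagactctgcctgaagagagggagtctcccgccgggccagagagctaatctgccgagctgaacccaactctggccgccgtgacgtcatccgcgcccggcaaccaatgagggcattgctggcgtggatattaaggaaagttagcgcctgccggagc
Pax6 second start: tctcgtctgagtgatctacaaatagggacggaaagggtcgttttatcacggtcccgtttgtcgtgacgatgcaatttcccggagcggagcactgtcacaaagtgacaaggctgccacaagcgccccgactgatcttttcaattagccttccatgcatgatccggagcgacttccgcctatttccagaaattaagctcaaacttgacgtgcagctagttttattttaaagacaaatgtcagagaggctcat

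Six3 lies above Pax6 in the forming lens and represses Wnt genes in the front of the head. It read 372 and 235 on the C57BL/6J KO arrays, 343 and 392 on the C57BL/6J WT arrays, 318 and 292 on the 129SvJae KO arrays, and 468 and 242 on the 129SvJae WT arrays. The groups overlapped in every comparison, and the 2 arrays of 129SvJae WT spanned almost the whole range of the gene. Over both genotypes the strain log2 ratio was 0.04 (SE 0.27, adjusted p = 0.990) and the KO log2 ratio averaged over strains was -0.23 (SE 0.27, adjusted p = 0.998). The strain interval, -0.55 to 0.63, leaves a difference of either sign possible.

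Sox1 and Sox2 are closely related HMG-box factors. Sox2 pairs with Pax6 in the early lens, and Sox1 takes over in fiber cells, where mice that lack it fail to elongate fibers and make little γ-crystallin. Sox1 read 292 and 407 on the C57BL/6J KO arrays, 168 and 409.7 on the C57BL/6J WT arrays, 199.8 and 189.95 on the 129SvJae KO arrays, and 54.6 and 225 on the 129SvJae WT arrays. Both C57BL/6J KO arrays were above both 129SvJae KO arrays, whereas the WT arrays of the strains overlapped and the 2 arrays within each WT group lay far apart. Group means followed the order C57BL/6J KO (350 ± 81.7, SD), C57BL/6J WT (289 ± 171), 129SvJae KO (195 ± 6.94) and 129SvJae WT (140 ± 121), and neighbours in that order overlapped.

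The averaged strain ratio of Sox1 was the largest of the 8 factors on the log2 scale, 1.03 (SE 0.43, a 2.05-fold difference, unadjusted p = 0.0321 and adjusted p = 0.634 in limma). It was 0.82 in KO lenses (SE 0.61, adjusted p = 0.9997) and 1.24 in WT lenses (SE 0.61, adjusted p = 0.787). All 4 single-array ratios at matched replicate numbers were positive, 0.55 and 1.10 in KO lenses and 1.63 and 0.86 in WT lenses. The value depended on 129SvJae WT replicate 1, the array with the high Sag signal, where Sox1 was barely above 50. Without that array the averaged strain log2 ratio was 0.52 (unadjusted p = 0.165), and without 129SvJae WT replicate 2 it was 1.55 (unadjusted p = 0.00150, adjusted p = 0.133, limma). The part of the retina signal in the ratio was not tested; within KO lenses, which do not include that array, the ratio was 0.82. The KO log2 ratio of Sox1 averaged over strains was 0.60 (SE 0.43, adjusted p = 0.998), and it came to 0.09 without 129SvJae WT replicate 1 and to 1.11 without 129SvJae WT replicate 2.

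Sox2 read 798 and 728 on the C57BL/6J KO arrays, 1006 and 758 on the C57BL/6J WT arrays, 487 and 770.2 on the 129SvJae KO arrays, and 962 and 714 on the 129SvJae WT arrays. The groups overlapped in every comparison. The means were lower in KO than in WT lenses of both strains, and the KO log2 ratio averaged over strains was -0.32 (SE 0.21, 95% interval -0.76 to 0.13, adjusted p = 0.998). In replicate 2 the KO ratio was -0.06 in C57BL/6J and 0.11 in 129SvJae, so the lower means came from replicate 1, where the ratios were -0.34 in C57BL/6J and -0.98 in 129SvJae. The strain log2 ratio was 0.20 (SE 0.21, adjusted p = 0.941), and it ran between 0.03 without 129SvJae KO replicate 1 and 0.36 without 129SvJae KO replicate 2. The probe set of Sox2 is one for which the chip's makers relaxed their design rules.

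The windows of the 2 Sox genes, which share a DNA-binding domain, are shown side by side because Sox1 had the largest strain ratio and Sox2 held the only motif match. They hold the 250 bases before the start on the plus strand of GRCm38.p6, chr8:12395269-12395518 for Sox1 and chr3:34649745-34649994 for Sox2. The only match among all 8 windows of the members was in Sox2, a TGCTGA between bases -236 and -231 from the start, in capitals. This motif was present in 16.1% of 32851 windows of all genes, GAANNTTC in 6.69%, TAATCC in 6.25% and CATTGT in 10.7%.
Sox1: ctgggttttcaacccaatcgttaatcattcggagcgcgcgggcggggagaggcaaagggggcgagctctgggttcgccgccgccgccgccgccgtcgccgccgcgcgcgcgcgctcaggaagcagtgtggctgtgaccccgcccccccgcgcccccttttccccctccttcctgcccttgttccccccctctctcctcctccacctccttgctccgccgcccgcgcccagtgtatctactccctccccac
Sox2: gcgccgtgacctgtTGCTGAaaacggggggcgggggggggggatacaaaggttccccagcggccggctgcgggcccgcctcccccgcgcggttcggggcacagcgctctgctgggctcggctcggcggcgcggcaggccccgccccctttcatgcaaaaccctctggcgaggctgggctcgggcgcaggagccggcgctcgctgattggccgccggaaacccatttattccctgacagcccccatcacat

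Maf, a basic leucine zipper factor, switches on crystallin genes, and fibers of mice that lack it do not elongate. It read 541 and 1047 on the C57BL/6J KO arrays, 726 and 764 on the C57BL/6J WT arrays, 689.8 and 302 on the 129SvJae KO arrays, and 178 and 741 on the 129SvJae WT arrays. In each 129SvJae group 1 array was low, 129SvJae WT replicate 1 and 129SvJae KO replicate 2, and the other 6 lay between 541 and 1047, so the strains overlapped. The strain log2 ratio averaged over genotypes was 0.88 (SE 0.40, 95% interval 0.02 to 1.73, unadjusted p = 0.0449, adjusted p = 0.700 in limma), with 0.72 in KO lenses and 1.04 in WT lenses. At matched replicate numbers, C57BL/6J over 129SvJae was -0.35 and 1.80 in KO lenses and 2.03 and 0.04 in WT lenses. Without 129SvJae WT replicate 1 the averaged strain log2 ratio was 0.36 (unadjusted p = 0.265), and without 129SvJae WT replicate 2 it was 1.39 (unadjusted p = 0.00096, adjusted p = 0.110, limma), the lowest adjusted p of any factor under any alternative. The KO log2 ratio averaged over strains was 0.17 (SE 0.40), and the single-array KO ratios in 129SvJae were of opposite sign, 1.95 and -1.30.

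Prox1, a homeodomain factor that carries fiber cells out of the cell cycle, was the one factor with an unadjusted p under 0.05 for a KO ratio in the limma fit described above, though not in every alternative. It read 783 and 1126 on the C57BL/6J KO arrays, 612 and 1056 on the C57BL/6J WT arrays, 1345 and 1545 on the 129SvJae KO arrays, and 816 and 949 on the 129SvJae WT arrays. Both 129SvJae KO arrays were above all 6 others, and those 6 overlapped between groups. In 129SvJae the KO over WT log2 ratio was 0.71 (SE 0.29, 1.64-fold, 95% interval 0.08 to 1.34, unadjusted p = 0.0292, adjusted p = 0.9998 in limma), with 0.72 in replicate 1 and 0.70 in replicate 2. In C57BL/6J it was 0.22 (SE 0.29, adjusted p = 0.9999), with 0.36 and 0.09. The 2 KO effects were compared directly by the interaction, which was -0.49 (SE 0.41, unadjusted p = 0.257, adjusted p = 0.9998), so a difference between the strains was not shown. Without C57BL/6J WT replicate 1 the interaction was -0.88 (unadjusted p = 0.0481), also not called.

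Averaged over strains the KO log2 ratio of Prox1 was 0.47 (SE 0.21, unadjusted p = 0.0402, adjusted p = 0.998), and all 4 single-array ratios were positive. Each array left out moved this averaged ratio, those of C57BL/6J the most. It fell to 0.27 when C57BL/6J WT lost replicate 1 and rose to 0.67 when that group lost replicate 2. When C57BL/6J KO lost replicate 1 it was 0.60, against 0.34 for the loss of replicate 2. Dropping a 129SvJae array gave values between 0.41 and 0.52, the lowest for WT replicate 1, the array with the high Sag signal. The KO ratio within 129SvJae ran between 0.60 and 0.82 when 1 of that strain's own arrays was dropped. A block for scan session brought the KO ratio in 129SvJae to 0.57 (unadjusted p = 0.0563, adjusted p = 0.564). The strain ratio ran the other way: C57BL/6J over 129SvJae was -0.62 in KO lenses (SE 0.29, unadjusted p = 0.0530, adjusted p = 0.9997), without overlap, and -0.13 in WT lenses (SE 0.29, adjusted p = 0.972), with overlap. A block for scan session left the strain ratio in KO lenses at -0.62 and lowered its SE to 0.20 (unadjusted p = 0.013, adjusted p = 0.61, limma). With the replicate number as a block its unadjusted p was 0.0151 (adjusted p = 0.726, limma). That strain ratio and the KO ratio in 129SvJae share the 129SvJae KO arrays. In all 4 groups the array of replicate 2 was higher than that of replicate 1, and the lowest of all, C57BL/6J WT replicate 1, is the array with the fluidics error.

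The 2 Prox1 windows in the RefSeq table are printed because Prox1 had the KO ratios with the smallest unadjusted p in that limma fit. They hold the 250 bases before each start on the minus strand of GRCm38.p6, chr1:190169516-190169765 and chr1:190170828-190171077, and none of the 4 motifs was found in them.
Prox1 start at the lower coordinate: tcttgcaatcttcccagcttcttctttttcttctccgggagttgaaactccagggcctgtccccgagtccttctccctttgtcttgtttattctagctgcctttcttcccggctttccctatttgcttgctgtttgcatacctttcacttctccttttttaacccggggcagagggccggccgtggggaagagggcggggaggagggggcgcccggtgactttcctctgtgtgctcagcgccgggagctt
Prox1 start at the higher coordinate: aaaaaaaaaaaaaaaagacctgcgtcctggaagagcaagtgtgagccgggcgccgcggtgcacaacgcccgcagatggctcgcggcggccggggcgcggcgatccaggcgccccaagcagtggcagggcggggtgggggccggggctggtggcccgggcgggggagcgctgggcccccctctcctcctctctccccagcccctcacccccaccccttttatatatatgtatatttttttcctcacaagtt

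Hsf4 binds heat shock elements in the fiber cells, and mutations in it cause cataract in people and mice. It read 1135 and 1861 on the C57BL/6J KO arrays, 1667 and 2145 on the C57BL/6J WT arrays, 1860.3 and 1142 on the 129SvJae KO arrays, and 996 and 1526 on the 129SvJae WT arrays. Both C57BL/6J WT arrays were above both 129SvJae WT arrays, and the KO arrays of the 2 strains had almost the same pair of values. The strain log2 ratio was -0.004 in KO lenses (SE 0.31, 95% interval -0.68 to 0.67) and 0.62 in WT lenses (SE 0.31, 1.53-fold, unadjusted p = 0.0698, adjusted p = 0.788 in limma). The ratio in WT lenses was 0.31 without 129SvJae WT replicate 1 (unadjusted p = 0.399) and 0.92 without 129SvJae WT replicate 2 (unadjusted p = 0.0233, adjusted p = 0.420). The difference between the KO and WT ratios, the interaction, was -0.62 (SE 0.44, unadjusted p = 0.183, adjusted p = 0.9998), which was not called. KO over WT was -0.38 in C57BL/6J and 0.24 in 129SvJae (SE 0.31 each), and -0.07 on average (SE 0.22).

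Pitx3, the homeodomain factor lost in aphakia mice, whose lens does not form properly, keeps epithelial cells from differentiating early. It read 452 and 747 on the C57BL/6J KO arrays, 506 and 710.2 on the C57BL/6J WT arrays, 870.2 and 478 on the 129SvJae KO arrays, and 559 and 580.3 on the 129SvJae WT arrays. Both WT arrays of 129SvJae lay between those of every other group. The strain log2 ratio averaged over genotypes was -0.04 (SE 0.24, 95% interval -0.57 to 0.49) and the KO log2 ratio averaged over strains was 0.07 (SE 0.24, 95% interval -0.46 to 0.59), both with overlap in each comparison. No upstream window of Hsf4 or Maf was in the table used, and the windows of Pitx3 and Six3, which had no match, are not shown.

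Groups that did not overlap were no more frequent among the 8 factors than over the chip. In KO lenses, Sox1 (higher in C57BL/6J) and Prox1 (lower in C57BL/6J), 2 of 8 factors, did not overlap between strains, against 31.9% of tested probe sets. In WT lenses, Hsf4 (higher) and Pax6 (lower) did not, against 32.3%. Between genotypes, Pax6 alone did not overlap in C57BL/6J (higher in KO), against 27.7%, and Prox1 alone in 129SvJae (higher in KO), against 29.8%. No factor was without overlap in all 4 arrays against 4, where 5.57% of tested probe sets were for strain and 2.19% for genotype. The median log2 ratio over the 8 factors was 0.12 for the averaged strain difference, with 5 positive and 3 negative, and 0.11 for the averaged KO effect, also with 5 positive and 3 negative, beside 0.01 and -0.02 over all tested probe sets.

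**Figure D3:**
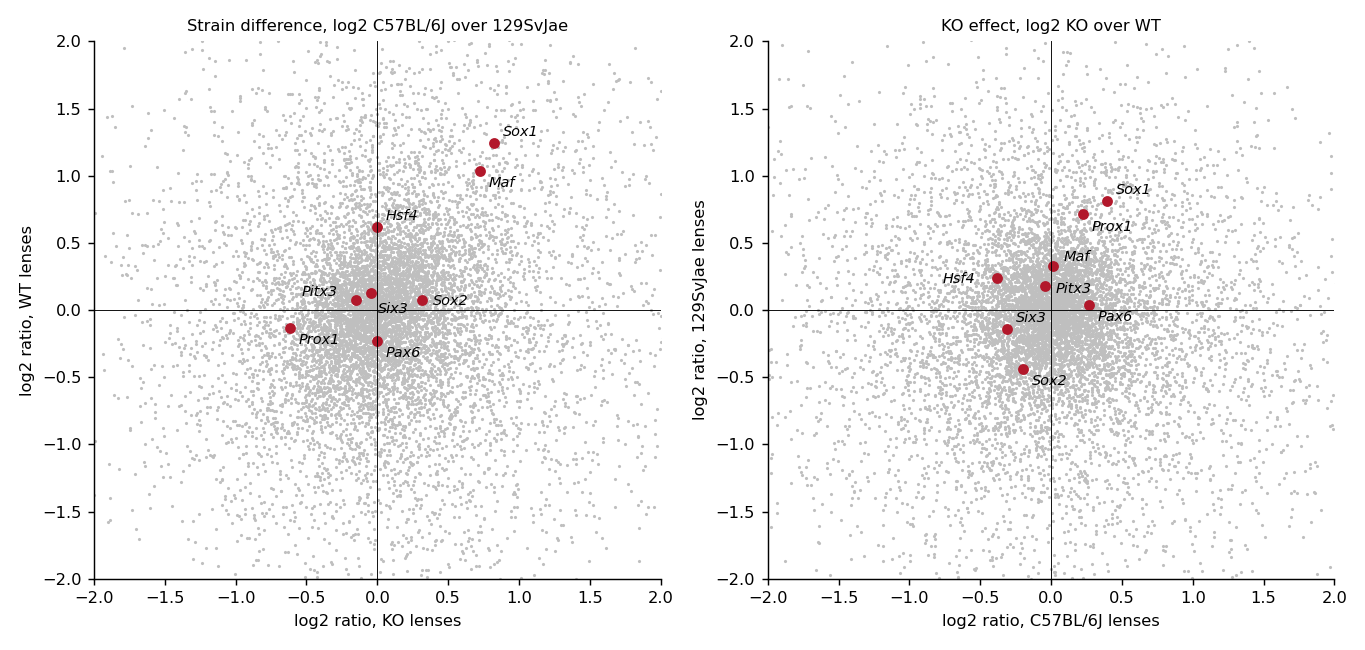
The 8 factors (red) among all 10078 tested probe sets (grey). Left, the log2 ratio of C57BL/6J over 129SvJae in KO lenses (horizontal) and in WT lenses (vertical); right, the log2 ratio of KO over WT in C57BL/6J (horizontal) and in 129SvJae (vertical). Axes end at 2 in either direction, which leaves 438 probe sets out on the left and 406 on the right. Sox1 and Maf are the 2 factors with strain ratios above 0.5 in both genotypes.

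The factors differed in the spread between the 2 arrays of a group. Maf (SD of log2 signal 0.906) and Sox1 (0.871) had the widest, wider than 74.4% and 72.5% of tested probe sets. Hsf4 and Pitx3 (0.435 each), Six3 (0.417), Prox1 (0.350) and Sox2 (0.317) were all under the median of 0.54. The highest array was 7.51 times the lowest for Sox1, 5.87 times for Maf, 2.525 times for Prox1, 2.15 times for Hsf4, 2.065 times for Sox2, 1.99 times for Six3 and 1.93 times for Pitx3, and the median over tested probe sets was 3.225 times. Sox1 and Maf, the 2 factors with the largest strain ratios, were thus also the 2 with the least agreement within groups.

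**Figure D4:**
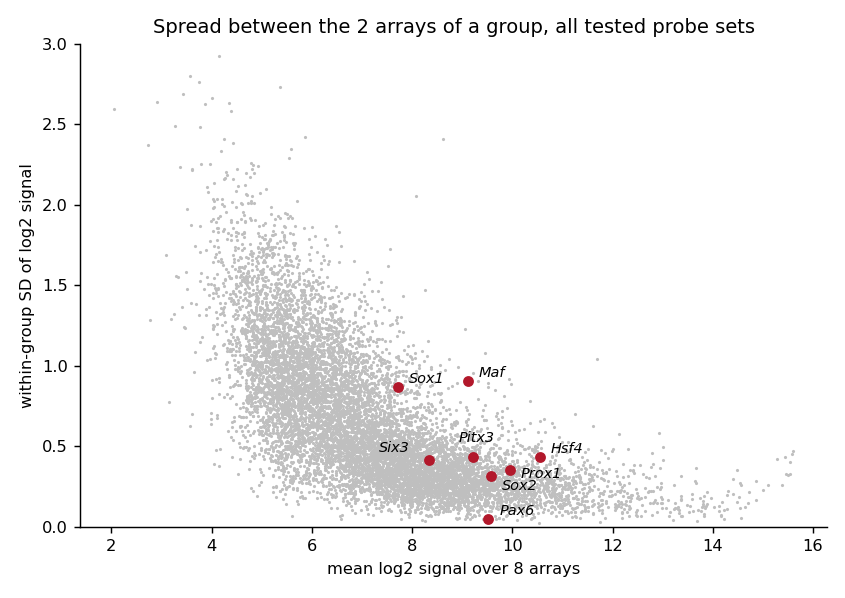
Spread within groups against brightness. The horizontal axis is the mean log2 signal over 8 arrays, the vertical axis is the SD of log2 signal between the 2 arrays of a group pooled over the 4 groups, grey points are all tested probe sets (2 lie above the axis) and red points are the 8 factors. Maf and Sox1 lie at 0.906 and 0.871 and Pax6 at 0.048.

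The lowest array was shared by 3 factors. Sox1, Hsf4 and Maf were lowest on 129SvJae WT replicate 1, the array with the high Sag signal, and Six3 was highest there. The 3 lie on chromosome 8, which was seen after the values, and its part was not tested. No other array was the lowest for more than 1 factor. Six3 is itself expressed in retina, as are Pax6 and Prox1, and the part of retinal RNA in these readings was not tested. Pax6 and Prox1 were highest on 129SvJae KO replicate 2, and Sox1 and Hsf4 on C57BL/6J WT replicate 2.

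The genes whose log2 signals followed each factor most closely over the 8 arrays, among 3587 bright probe sets with 1 symbol, are given as a description without a test. They share arrays, scaling and batch with the factor. Pax6 was followed by Thumpd3 (Pearson r = 0.923 over 8 arrays), Dnajc2 (0.917) and Rab18 (0.913). Sox1 had the closest partners, Nedd8 (0.989), Dnajb2 (0.985) and Cavin1 (0.980), and Sox2 had Cnpy2 (0.985), Set (0.951) and Rad23b (0.936). For Maf they were Sptlc1 (0.982), Rap1gap (0.968) and Tle5 (0.939), and for Prox1 Nsmce4a (0.942), Use1 (0.937) and Pbx3 (0.923). Hsf4 was followed less closely, by H6pd, Bag6 and Gaa (0.889 each). Pitx3 had Thra (0.929), Mtss2 (0.907) and Sirt2 (0.889), and Six3 had Yars (0.898), Acaa1a (0.896) and Ptdss1 (0.894). None of the 24 was another of the 8 factors.

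None of the other lens transcription factors looked at was called either. Of 30 further lens factors, 21 were on the chip with 28 probe sets, 23 of which were tested. In either direction 0 were called for strain or genotype (limma, adjusted p). Over all tested probe sets 0.367% were called for the averaged strain difference and 0.0198% for the averaged KO effect. At an unadjusted p under 0.05 there were 0 for the averaged strain difference and 1 for the averaged KO effect. Over all tested probe sets 6.98% and 3.05% passed. The 1 was Eya1, a coactivator of Six3-like homeodomain proteins, named here after its value was seen. A dim probe set of Eya1 had a KO log2 ratio of 1.49 (SE 0.55, adjusted p = 0.998) and was above 50 on only 5 arrays, and the brighter one gave 0.25. The smallest strain p values were those of Rax, a homeodomain factor of the early eye field (log2 ratio 0.68, SE 0.34, adjusted p = 0.762), a dim probe set of the coactivator Ncoa6 (-1.62, SE 0.88, adjusted p = 0.801), Tfap2a (0.48, SE 0.34, adjusted p = 0.886), which acts in lens epithelium, and Mafg (0.37, SE 0.27, adjusted p = 0.895), a small Maf protein. The second Tfap2a probe set gave -0.28 and the brighter Ncoa6 probe set 0.19, each of the opposite sign, and the second Mafg probe set gave 0.06. The median log2 ratios of the list were 0.08 for strain and 0.03 for genotype.

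Close relatives of the 8 factors, 33 other genes of the same families, were represented by 27 genes and 40 probe sets, 29 of them tested. Again 0 were called, where 0.367% of tested probe sets were for averaged strain and 0.0198% for averaged KO. Pax4, better known from the pancreas, had the smallest strain p, with a log2 ratio of 0.94 (SE 0.37, unadjusted p = 0.0249, adjusted p = 0.573). It was the 1 under an unadjusted p of 0.05, where 6.98% of tested probe sets were. Sox4 (0.36 and -0.13 for its 2 probe sets), Mafg and Pax2 (-0.55) came next. For genotype, 2 passed an unadjusted p of 0.05, where 3.05% of tested probe sets did, and are named after their values were seen. They were Nrl, the Maf relative of rod photoreceptors (-1.09, SE 0.48), and a probe set of Sox18 (1.92, SE 0.85). The Sox18 probe set was above 50 on 2 arrays, and the brighter one of that gene gave 0.19. Median log2 ratios were 0.06 for strain and 0.03 for genotype.

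Hsf4 is 1 of 4 regulators of Hspb1, the small heat shock protein Hsp25, that the study's text names, with Hif1a, Stat3 and Atf5. Atf5, a stress-responsive leucine zipper factor, read 478 and 473 on the C57BL/6J KO arrays, 372 and 705 on the C57BL/6J WT arrays, 241 and 282 on the 129SvJae KO arrays, and 266 and 267 on the 129SvJae WT arrays. All 4 C57BL/6J arrays were above all 4 129SvJae arrays, where 5.57% of tested probe sets did not overlap in either direction. The strain log2 ratio of Atf5 was 0.91 (SE 0.25, unadjusted p = 0.00284, adjusted p = 0.225 in limma), which was not called, and its KO log2 ratio was -0.07 (SE 0.25). The 2 Stat3 probe sets differed in sign for strain (0.16 and -0.49, SE 0.21 and 0.35), and both probe sets of Hif1a, which may also read related sequences, were near 0 (0.04 and 0.10, SE 0.19 and 0.18). Hspb1 itself was above 50 on 2 of 8 arrays and gave no usable ratio.

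Reported lens targets of the factors were 24 genes, among them crystallin, membrane, cytoskeleton and cell cycle genes. The list does not say whether a factor raises or lowers each gene. These targets had 28 probe sets for 18 genes on the chip, 25 of them tested. The 1 called for strain was a probe set of Cryge, a γ-crystallin, higher in C57BL/6J, where 0.367% of tested probe sets were called on average. It read 3790 and 4606 on the C57BL/6J KO arrays, 4394 and 5335 on the C57BL/6J WT arrays, 449 and 501 on the 129SvJae KO arrays, and 247 and 541 on the 129SvJae WT arrays. Its averaged strain log2 ratio was 3.43 (SE 0.22, adjusted p = 3.57e-06), while the other 3 Cryge probe sets gave between -0.37 and 0.05, 2 of them in a class that may read several γ-crystallins. For strain 18 target probe sets were positive and 7 negative on average (median 0.06), but the tallies differed between genotypes, with 21 positive and 4 negative in KO lenses (median 0.17) and 9 positive and 16 negative in WT lenses (median -0.06), a difference that was not tested. Over all tested probe sets 50.9% were positive for the averaged strain difference. For genotype 5 target probe sets were positive and 20 negative, with a median of -0.25. There were 0 called (0.0198% of all tested probe sets) and 0 at an unadjusted p under 0.05 (3.05%). Over all tested probe sets 47.3% were positive for genotype. Many target probe sets are of crystallins, some in the class that may read several of them, so they are not independent readings. The KO ratios of the fiber markers were negative in 5 of 5 probe sets (median -0.37), of which only the disrupted Gja3 was called (-2.23, SE 0.29, adjusted p = 0.0160). Summed fiber marker signals, which are mostly Cryaa and Crygs, were between 100705 and 145412 on KO arrays and between 133183 and 185756 on WT arrays. Their part in the readings of the 8 factors was not tested.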

How the data were processed

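RNA from lenses of mice 10 days old was measured on 8 MG-U74Av2 arrays, 2 for each of 4 groups taken from the sample labels. The authors deposited for every probe set 1 intensity on each array. It is a MAS5 signal, as the submitters' processing notes name the tool without a version, on a linear scale that the authors scaled to a mean of 250. MAS5 subtracts mismatch probes, so signals near or under 50 are close to background. The number of arrays and the signal over background limit the precision, since an array has no read depth. Detection calls were not used.

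From these values, arrays were brought to a trimmed mean of 250 (2% off each end) and log2 was taken, with 1 in place of the 1 signal that was not above 0. Of 12488 probe sets, 66 were controls and were not used. Of the other 12422, 10833 have 1 gene symbol, 396 several and 1193 none. Names come from the platform annotation, and 10817 of the 10833 matched a GRCm38.p6 gene table. A limma 3.58.1 fit in R 4.3.3 with 4 group means and a variance trend (4 residual and 9.17 prior degrees of freedom) was run on 10078 probe sets, those whose mean passed 50 in 1 group or more. The 7 contrasts were strain in each genotype and averaged, KO in each strain and averaged, and the interaction, and an adjusted p under 0.05 is a call. The fit was tested on simulated data.

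The members and gene lists were chosen with earlier results of these data known. All probe sets of the 8 factors are given, and the 1 with the highest mean log2 signal stands for a gene. Of other lists, called genes are named and otherwise up to 4 with the smallest p in the averaged strain difference, the 4 regulators of Hspb1 in any case. The 3 most similar genes were taken by Pearson r among probe sets with a mean above 200. Upstream windows of 250 bases are from RefSeq, for 6 of the 8 factors.

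The main fit has no block, so its SEs and p-values do not use any pairing of the arrays. In 1 alternative the replicate numbers were taken to pair them. Replicate 1 of all groups shared 1 scan session and chip lot in the run records, and deviations of same-numbered arrays correlated at 0.130 to 0.206 in all 6 pairs of groups. Alternatives were other scalings, offsets and filters, no variance trend, only the groups compared, the replicate number, scan session or chip lot as a block (the last chosen after seeing the data), the methods' t-test and each array left out in turn.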

Additional observations from a re-analysis of the deposited data

How the results depend on the processing

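No factor was called under any of the 21 alternatives: over the 1144 refitted ratios the lowest adjusted p was 0.110, that of Maf for strain without 129SvJae WT replicate 2. The sign changed in 75 of the 1144, all uncalled. Of the averaged ratios, arrays centred on the median gave -0.012 for the Six3 strain ratio and 0.005 for the Hsf4 KO ratio, the scan session as a block gave -0.148 and 0.053 for these 2, and the chip lot as a block, chosen after seeing the data, gave -0.14 for the Pitx3 KO ratio. The cause was not tested. Leaving out 1 array at a time gave KO log2 ratios between -0.25 and 0.11 for Hsf4, -0.34 and 0.69 for Maf, -0.15 and 0.28 for Pitx3 and -0.465 and 0.009 for Six3, and strain log2 ratios between -0.25 and 0.18 for Pitx3 and -0.20 and 0.28 for Six3. With the replicate number as a block, which follows the pairing of the arrays, 0 of 8 factors were called in every comparison. Over the chip, that block gave 58 calls for the averaged strain difference, against 37 in the main fit. The smallest unadjusted p among the factors for KO in 129SvJae was 0.00692 with it and 0.0292 in the main fit (limma). Each number holds 1 array of every group, so the block cannot move a ratio and changes only its error: the averaged strain ratio of Sox1 had an SE of 0.35 (adjusted p = 0.310) and the averaged KO ratio of Prox1 an SE of 0.15 (adjusted p = 0.919). With the scan session as a block, where 129SvJae WT replicate 2 is alone in its session and adds nothing, Sox1 had 1.405 (adjusted p = 0.111) and Maf 1.406 (adjusted p = 0.113). The second Six3 probe set was under 50 on every array and gave no value. Each group had 2 arrays, and a group left with 1 was assumed to vary like the others.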

Other observations

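Npnt, which encodes the matrix protein nephronectin and was taken here as a marker of lens epithelium, was the epithelial marker with the smallest p between strains. It read 629 and 575 on the C57BL/6J KO arrays, 664 and 607 on the C57BL/6J WT arrays, 273 and 403 on the 129SvJae KO arrays, and 370.2 and 338 on the 129SvJae WT arrays. All 4 C57BL/6J arrays were above all 4 129SvJae arrays, where 5.57% of tested probe sets did not overlap in either direction. The averaged strain log2 ratio was 0.85 (SE 0.21, unadjusted p = 0.00130, adjusted p = 0.163 in limma), which was not called. The KO log2 ratio was -0.09 (SE 0.21). The strain log2 ratios of the other epithelial markers, none of them called, were 0.26 (SE 0.16) for Cdh2, the N-cadherin of lens cells, 0.06 (SE 0.25) for Cdh1, the E-cadherin of lens epithelium, 0.22 and -0.12 for the 2 probe sets of Gja1, connexin 43, and 0.07 and -0.38 for the 2 tested probe sets of Pdgfra.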
